A study of Margaritifera margaritifera with 32 samples.

Results

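The contigs named for calmodulin were examined in the kidney transcriptome of the freshwater pearl mussel, Margaritifera margaritifera, a long-lived river bivalve. They were chosen by name alone: every contig of the count table whose name, without its prefix and trailing numbers, was CALM, CALL, CAM or CMD followed by nothing but digits. The rule found 23 of the 51392 contigs. Of these, 20 were named CALM, 1 CALM2 and 2 CALM3, and no contig carried a CALL, CAM or CMD name. All 23 passed the filter on low counts, as did 51264 contigs of the whole table. In vertebrates CALM, CALM2 and CALM3 are names of calmodulin genes. In this table each name states only the best match of an assembled sequence, so contigs of other calmodulin-like proteins may carry it, and contigs of 1 name may share reads. Contigs of 1 name are told apart by a running number, so that CALM.12.20 is contig 12 of 20.

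Calmodulin is a small cytoplasmic protein that binds calcium ions through EF-hand loops. With calcium bound it changes shape and docks onto other proteins, among them protein kinases, the phosphatase calcineurin, calcium pumps and nitric oxide synthases, and so passes a rise in calcium on to enzymes. It is made in nearly all animal cells and is among the most conserved animal proteins. In bivalves, calmodulin and calmodulin-like proteins have also been studied in the mantle, where they take part in the calcium handling of shell formation. The bivalve kidney stores calcium and metals in granules.

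Kidneys of 32 mussels from the Dronne River were sequenced, 1 library per animal and 8 animals in each of 4 groups. The groups were sampled downstream of a wild dump in March 2010, upstream of it in March 2010, downstream in April 2009 and upstream in April 2009. The labels name no treatment, and the series' title gives trace metal contamination as the subject. Downstream in 2010 the animals were 3 young, 3 middle-aged and 2 old ones, and upstream in 2010 they were 4 young, 3 middle-aged and 1 old. Downstream in 2009 they were 1 middle-aged and 7 old, and upstream in 2009 they were 3 young, 4 middle-aged and 1 old. Site, year and age class are therefore partly entangled, and downstream 2009 had no young animal. The groups also differ in index sequence, and the years in the range of sample numbers, according to the library names. Index, sample number, site and year cannot be told apart in these groups. The 4 sequencing lanes held 2 libraries of every group each. No marker set of the bivalve kidney was sure enough to check the labelled tissue, and in RNA from whole tissue a lower level cannot be told apart from fewer cells that make the transcript.

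Total counts per library ranged from 55.7 to 190 M, with a median of 77.5 M. The unit of level is CPM, read counts put on a common library total with a TMM factor, which brings the bulk of contigs to a common level. Downstream 2009 replicates 7 and 8, both old animals, stood apart from the rest of the table. Their scaling factors were 0.503 and 0.524, against 0.601 to 1.47 in the other 30 libraries. The sum of their ribosomal protein contigs was 109945 and 94450 CPM, against 7272 to 57185 CPM elsewhere. Their contigs named for tubulins and dyneins, a list made up mostly of tubulins and not limited to cilia, summed to 36804 and 39188 CPM. Elsewhere that sum was 3788 to 32203 CPM. Counts of calls that rest on these libraries are given with and without them. Sums, medians over contigs and correlations are given only with them. Contig lengths were not used here, so levels are compared between animals and not between contigs, and where contigs are set side by side the quantity is a share of counts.

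The calmodulin contigs together took 0.107% of all counts, and from 0.0614 to 0.192% in single libraries. CALM.7.20 held 47.7% of the counts of the 23 contigs and CALM.6.20 a further 16.0%. CALM.17.20 held 8.73%, CALM.1.20 5.46%, CALM.11.20 4.11%, CALM.12.20 4.08% and CALM.18.20 3.96%, and each of the other 16 held under 3%. The rarest were CALM.14.20, with 2 to 193 counts per library, and CALM.3.20, with 8 to 189 counts. These depths leave little counting error in the abundant contigs, whose values differ between animals far more than counting allows, and more of it in the rare ones. CALM.16.20 was at 0 counts in downstream 2009 replicates 3 and 8 and in upstream 2010 replicate 3, which allows levels of up to 0.0539, 0.0591 and 0.0401 CPM. CALM2 was at 0 counts in upstream 2010 replicate 8, which allows up to 0.0422 CPM. These limits rest on 3 counts and cover counting error only.

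The summed level of the 23 contigs averaged 819.6 ± 129 CPM downstream in 2010, 1035 ± 315 CPM upstream in 2010, 1367 ± 704 CPM downstream in 2009 and 1391 ± 807 CPM upstream in 2009 (SD, n = 8 each). Its median over all 32 libraries was 937 CPM and its range 515 to 2779 CPM. The 6 highest sums all belonged to animals of 2009, at both sites, and downstream 2009 replicate 7 had the highest. The groups nonetheless overlapped: the lowest sum of all, 515 CPM, was that of upstream 2009 replicate 8. By age class the sum averaged 1006 ± 422 CPM in 10 young, 1202 ± 564 CPM in 11 middle-aged and 1238 ± 745 CPM in 11 old animals (SD).

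CALM.7.20, the contig with the highest mean level, had 326, 402 and 563 CPM downstream in 2010 (lowest, median and highest of 8 libraries) and 219, 548 and 813 CPM upstream in 2010. It had 225, 456 and 959 CPM downstream in 2009 and 258, 496 and 1181 CPM upstream in 2009. The group medians thus ran from 402 to 548 CPM, less than the spread between single animals of any group. CALM.6.20 followed it closely: the ratio of their counts was 1.87 to 3.83 over the 32 libraries, with a median of 3.01. The lowest ratio was that of downstream 2010 replicate 5, and the next lowest was 2.68. At the other end of the range, CALM.14.20 averaged 0.461 ± 0.463 CPM over the 32 libraries (SD), with 28 of them under 1 CPM.

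On the scale of log2(CPM + 0.5), the calmodulin contigs varied more between animals of the same group than most contigs did. The within-group SD had a median of 0.92 over the 23 contigs, against 0.47 over all contigs tested. It was lowest for CALM.3.20, at 0.52, and highest for CALM.12.20, at 2.82, which was above 99.8% of all contigs. CALM.20.20 came next with 1.98 and CALM.13.20 with 1.68. The added 0.5 lowers this SD for scarce contigs. CALM.3.20, which averaged 0.508 CPM, is one, so its low SD does not show that it varied least. Contigs of the whole table were not matched to the calmodulin contigs by level. The highest of 32 levels exceeded the lowest 5.38-fold for CALM.7.20 and 5.74-fold for CALM.6.20, but 677-fold for CALM.12.20 and 518-fold for CALM.20.20. Only 7 of the 32 libraries were the highest for any of the 23 contigs. Downstream 2009 replicate 7 was the highest for 8 contigs, downstream 2010 replicate 5 for 4, and downstream 2009 replicate 8 and upstream 2009 replicate 2 for 3 each.

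**Figure D1:**
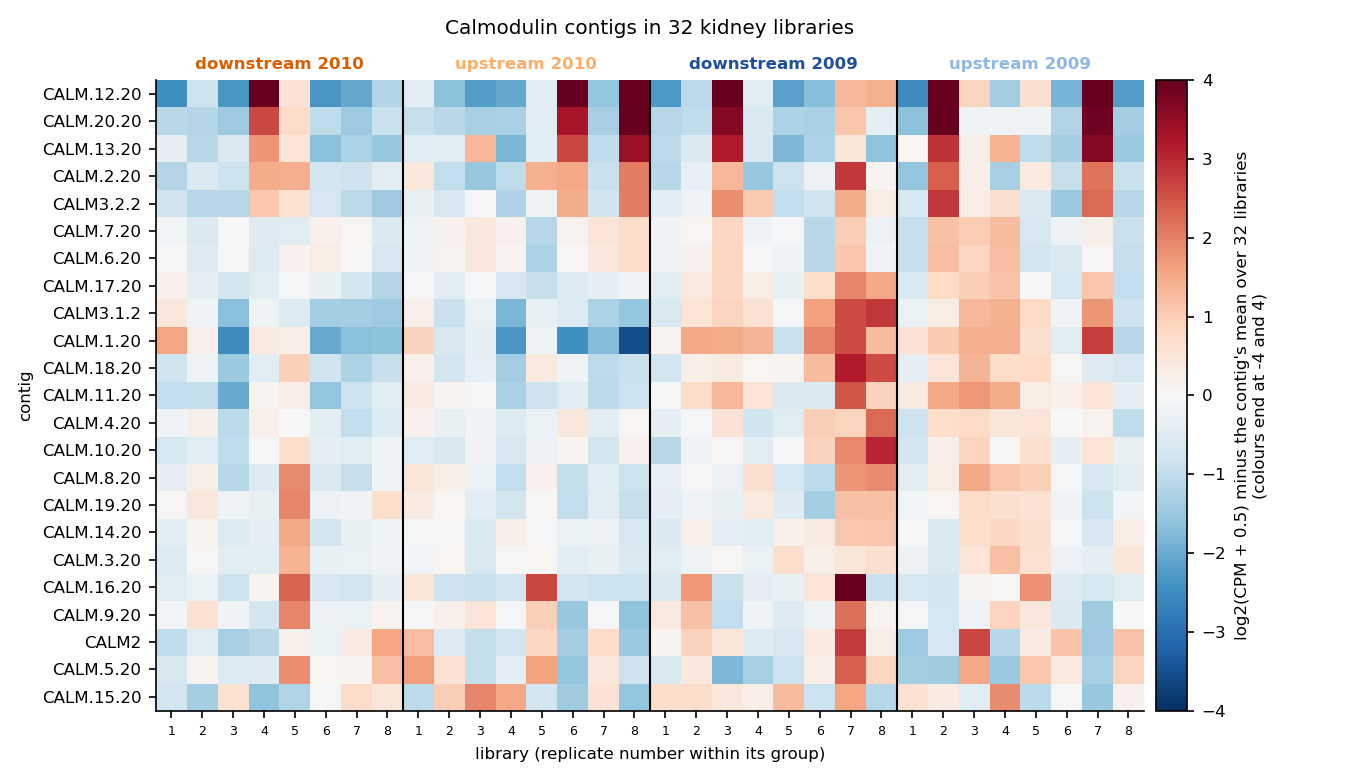
Levels of the 23 calmodulin contigs (rows) in 32 kidney libraries (columns, by group and replicate number), drawn as log2(CPM + 0.5) minus the mean of the contig over the libraries. Red marks a level above and blue a level below that mean, and CALM.12.20, CALM.20.20 and CALM.13.20 are dark red in the same 6 columns.

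The contigs did not move as 1 block. Over the 253 pairs of contigs, Pearson's r of log2(CPM + 0.5) across the 32 libraries had a median of 0.338 and ran from -0.491 to 0.973, with 16 pairs above 0.8. All pairs share the same libraries and scaling factors, and reads may be shared between contigs, so these values describe the table only. CALM.12.20 and CALM.20.20 had an r of 0.973, and CALM.6.20 and CALM.7.20 one of 0.97. CALM.3.20 and CALM.14.20 had 0.898, CALM.8.20 and CALM.19.20 had 0.89, and CALM.17.20 and CALM3.1.2 had 0.881. The lowest r was that of CALM.15.20 and CALM.12.20. CALM.15.20 had no close partner, its highest r with another calmodulin contig being 0.38.

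CALM.12.20 was high in 6 animals and low in the other 26. It had 374 and 258 CPM in upstream 2009 replicates 2 and 7, 249 and 148 CPM in upstream 2010 replicates 8 and 6, 214 CPM in downstream 2009 replicate 3 and 98.4 CPM in downstream 2010 replicate 4. The next highest value was 15.6 CPM, in downstream 2009 replicate 8. The 6 animals came from both sites, both years, all 3 age classes (4 young, 1 middle-aged, 1 old) and all 4 lanes. CALM.12.20 made up 10.8 to 15.2% of all calmodulin counts in these 6 libraries and at most 1.14% in any other.

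The same 6 libraries were the 6 highest for CALM.20.20, at 10.7 to 39.0 CPM, with no more than 3.3 CPM elsewhere. They were also the 6 highest for CALM.13.20, at 17.2 to 66.4 CPM, with no more than 13.3 CPM elsewhere. For CALM.2.20 and CALM3.2.2, 5 of the 6 highest libraries were among them, and in both cases downstream 2009 replicate 7 was the exception, with 23.3 and 26.5 CPM. CALM.9.20 ran the other way: these 6 libraries were its 6 lowest, at 0.155 to 0.745 CPM, against 0.849 to 8.74 CPM in the other 26. CALM.7.20 showed no such split, with 341 to 1098 CPM in the 6 libraries and 219 to 1181 CPM in the other 26. The ratio of CALM.12.20 to CALM.20.20 counts was 8.49 to 9.93 in the 6 libraries.

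Since the 6 libraries were picked by a level, they were not averaged or tested as a group. Over the whole table, 476 of 51264 contigs (0.929%) had the same 6 libraries as their highest. The calmodulin contigs among them were CALM.12.20, which picked the libraries, CALM.20.20 and CALM.13.20. A further 21 contigs of the table had these 6 as their lowest. Of the 1454 tested contigs with a gene or protein name, 11 shared the 6 highest libraries, and 8 of these were not calmodulins. NINJ1.2.2, named for the cell surface adhesion protein ninjurin-1, had 39.2 to 286 CPM in the 6 libraries and at most 3.92 CPM in any other. BDEF, named for a big defensin, an antimicrobial peptide of horseshoe crabs and molluscs, had 53.0 to 221 CPM in the 6 and at most 20.3 CPM in any other. The others were RNOY, HIPL2, BIRC8, Hhipl2, SLFNL1 and osbpl5, whose lowest value in the 6 libraries exceeded the highest elsewhere by 1.35-fold or less. The summed levels of 16 muscle contigs (1326 to 5146 CPM in the 6 libraries, 256 to 6625 CPM in the others) and of 24 tubulin and dynein contigs (9027 to 32203 CPM and 3788 to 39188 CPM) overlapped between them. All 6 lay above the median of the others on both lists, 621 CPM for muscle and 7352 CPM for tubulins and dyneins. Their part in the pattern was not tested.

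**Figure D2:**
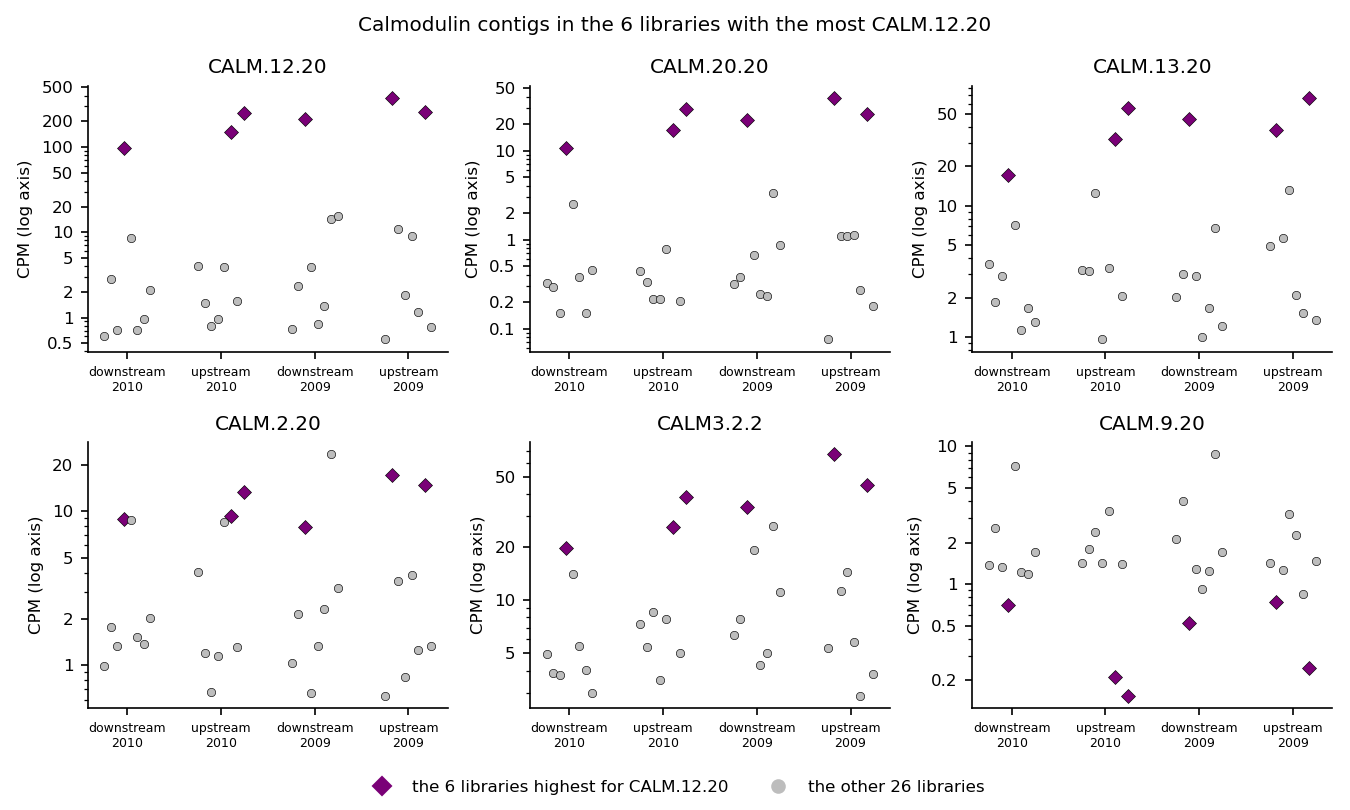
CPM (log axes) of 6 calmodulin contigs in the 8 libraries of each group, with diamonds for the 6 libraries highest for CALM.12.20 and grey circles for the other 26. The diamonds lie above every circle for CALM.12.20, CALM.20.20 and CALM.13.20 and below every circle for CALM.9.20, where they end at 0.745 CPM.

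The comparison of 2010 with 2009 downstream asks how the kidney transcripts of animals below the dump differed between the samplings. Of the 23 calmodulin contigs, 6 were called lower in 2010 (edgeR quasi-likelihood test, Benjamini-Hochberg adjusted p under 0.05 over all contigs tested) and none higher. That is 26.1% of them, while 27.7% of all contigs were called in either direction and 13.7% were called lower in 2010. The share of calmodulin contigs called was thus close to the background. The fitted difference was below 0 for 22 of the 23 contigs, with a median of -0.90 on the log2 scale, against -0.02 over all contigs.

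CALM3.1.2, a contig named for the CALM3 form, had 4.18, 7.40 and 19.7 CPM downstream in 2010 (lowest, median and highest) and 9.25, 24.3 and 104 CPM downstream in 2009. All 8 libraries of 2010 lay below the median of 2009, and 4 lay below its lowest library, but the groups overlapped. The log2 difference was -2.17 ± 0.48 (SE), with an adjusted p of 0.00129 in edgeR. Means were 9.25 ± 5.49 CPM in 2010 and 41.6 ± 36.1 CPM in 2009 (SD, n = 8 each). The highest values of 2009 were 104 CPM in replicate 8 and 90.8 CPM in replicate 7.

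CALM.18.20 had 12.4, 20.4 and 69.9 CPM downstream in 2010 and 20.8, 44.7 and 327 CPM downstream in 2009. The ranges overlapped, 5 of the 8 libraries of 2010 lay below the lowest of 2009, and replicates 7 and 8 of 2009 held its highest values, 327 and 223 CPM. Its log2 difference was -1.95 ± 0.48 (adjusted p = 0.00332, edgeR). CALM.11.20 had 8.86, 20.0 and 45.9 CPM in 2010 and 24.9, 59.0 and 217 CPM in 2009, with all 8 libraries of 2010 below the median of 2009. Its log2 difference was -1.61 ± 0.41 (adjusted p = 0.00432, edgeR). CALM.17.20, the third most abundant contig by counts, had 39.9, 67.2 and 104 CPM in 2010 and 66.8, 133 and 350 CPM in 2009. All 8 libraries of 2010 lay below the median of 2009 and 4 below its lowest library, and the log2 difference was -1.24 ± 0.33 (adjusted p = 0.00566, edgeR).

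CALM.10.20 had 0.201, 0.550 and 1.76 CPM in 2010 and 0.146, 0.910 and 11.1 CPM in 2009, so that the lowest library of all was one of 2009. Its log2 difference of -1.94 ± 0.59 (adjusted p = 0.0140, edgeR) rested on 1 animal: without downstream 2009 replicate 8 it was -1.08, with an adjusted p of 0.118. CALM.4.20 had 13.0, 23.1 and 33.3 CPM in 2010 and 16.1, 34.0 and 135 CPM in 2009. Its log2 difference of -0.99 ± 0.34 (adjusted p = 0.0307, edgeR) was -0.55 without the same replicate, with an adjusted p of 0.175. It also lost its call without downstream 2010 replicate 3, 6, 7 or 8, with adjusted p-values of 0.0519 to 0.0654. The remaining 4 of the 6 contigs stayed called whichever single library was left out.

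**Figure D3:**
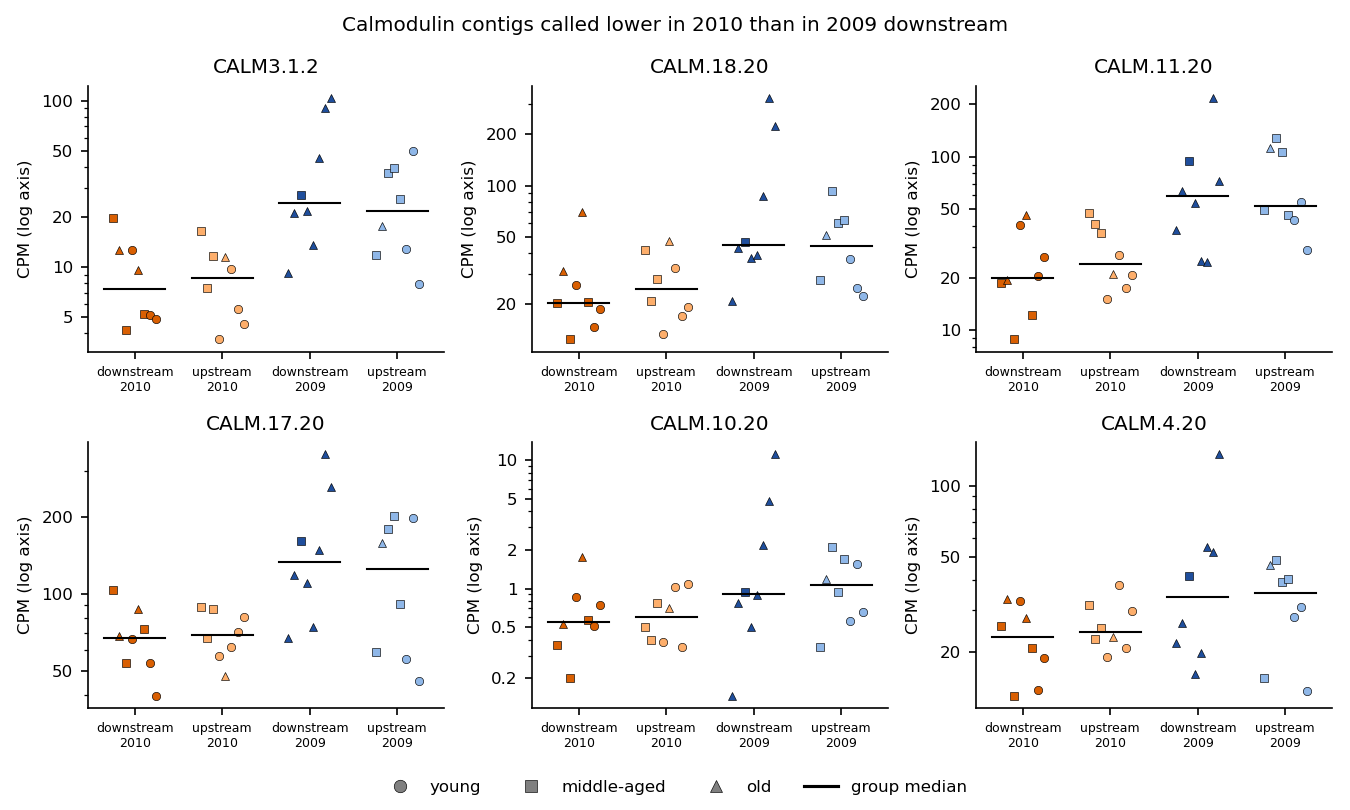
CPM (log axes) of the 6 contigs called lower downstream in 2010, in all 4 groups, with 1 symbol per animal, its shape giving the age class, and bars for the group medians. For CALM3.1.2 the 8 downstream libraries of 2010 lie between 4.18 and 19.7 CPM, all below the downstream median of 2009, 24.3 CPM.

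The calls depended on which animals and terms entered the fit. Without downstream 2009 replicates 7 and 8 together, 2 contigs were called, CALM3.1.2 (-1.34, adjusted p = 0.0260, edgeR) and CALM.11.20 (-1.08, adjusted p = 0.0451, edgeR). The log2 differences of the other 4 were then -0.79 for CALM.18.20 (adjusted p = 0.142), -0.76 for CALM.17.20 (0.0784), -0.41 for CALM.10.20 (0.574) and -0.41 for CALM.4.20 (0.356), in edgeR. With age class as an added term 2 were called, CALM3.1.2 and CALM.17.20, and with age class and lane as added terms none was. CALM.10.20 and CALM.4.20 also lost their calls with lane as a term (adjusted p = 0.0632 and 0.0686, edgeR), with limma-voom with sample weights (0.594 and 0.0555) and with only the 2 groups in the fit (0.0570 and 0.0760, edgeR). The other 4 kept theirs in these fits. CALM.1.20 was called in addition with the lane term, which gave 5 calls, and with limma-voom, which called CALM3.2.2 too and so gave 6. DESeq2 called the same 6 contigs as the main fit and CALM.1.20. The share of all contigs called in these fits is not given beside these counts, so they have no background to be read against. Among old animals alone, CALM3.1.2 had 9.55 and 12.7 CPM in the 2 libraries of 2010 and 9.25, 21.6 and 104 CPM (lowest, median and highest) in the 7 of 2009. For CALM.17.20 the values in old animals were 68.0 and 87.0 CPM in 2010, against 66.8, 118 and 350 CPM in 2009. The old animals of 2010 thus lay in the lower part of the range of 2009 for both contigs. This did not hold for all 6 called contigs. Old animals had 27.7 and 33.3 CPM of CALM.4.20 in 2010, both above their median of 2009, 26.4 CPM. For CALM.18.20 they had 31.3 and 69.9 CPM, around a median of 42.9 CPM in 2009. For CALM.10.20 the values were 0.532 and 1.76 CPM, around a median of 0.886 CPM. For CALM.11.20 they were 19.4 and 45.9 CPM, below a median of 54.3 CPM. Ribosomal protein contigs moved with the same contrast: 31 of 39 were called lower in 2010, with sums of 7272 to 18351 CPM in 2010 and 15632 to 109945 CPM in 2009. Of 24 tubulin and dynein contigs 10 were called lower and 1 higher, and of 16 muscle contigs 2 were called lower. The part of these lists in the calmodulin differences was not tested.

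The most abundant contigs did not pass the test. CALM.7.20 averaged 422 ± 97.2 CPM in 2010 and 541 ± 245 CPM in 2009 downstream (log2 difference -0.36 ± 0.33, adjusted p = 0.437, edgeR). CALM.6.20 averaged 151 ± 37.1 CPM in 2010 and 189.9 ± 92.0 CPM in 2009 (-0.33 ± 0.34, adjusted p = 0.491, edgeR). CALM.1.20 had a log2 difference of -1.54 ± 0.63 and an adjusted p of 0.0676 in edgeR, with 6.38, 28.8 and 118 CPM in 2010 and 21.0, 105 and 239 CPM in 2009. CALM.19.20 was the only contig with an estimate above 0, at 0.30 ± 0.38.

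Several scarce contigs other than CALM.10.20 did not pass the test. CALM2, the single contig named for the CALM2 form, averaged 0.959 ± 1.19 CPM in 2010 and 2.16 ± 2.95 CPM in 2009 downstream (SD, n = 8 each), with 9.32 CPM in downstream 2009 replicate 7 as its highest. Its log2 difference was -1.16 ± 0.98 (adjusted p = 0.403, edgeR). CALM.5.20 averaged 3.68 ± 3.14 CPM in 2010 and 3.81 ± 4.90 CPM in 2009 (-0.04 ± 0.70, adjusted p = 0.973, edgeR), the estimate nearest 0 of all 23. CALM.15.20 averaged 1.65 ± 1.30 CPM in 2010 and 3.07 ± 2.02 CPM in 2009 (-0.89 ± 0.68, adjusted p = 0.345, edgeR). CALM.3.20 averaged 0.482 ± 0.611 CPM in 2010 and 0.581 ± 0.328 CPM in 2009 (-0.26 ± 0.53, adjusted p = 0.750, edgeR). For the contigs high in few animals the standard errors were wide, at 1.5 for CALM.12.20, 1.39 for CALM.16.20 and 1.32 for CALM.20.20, so differences of several-fold could not be told from 0 there.

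**Figure D4:**
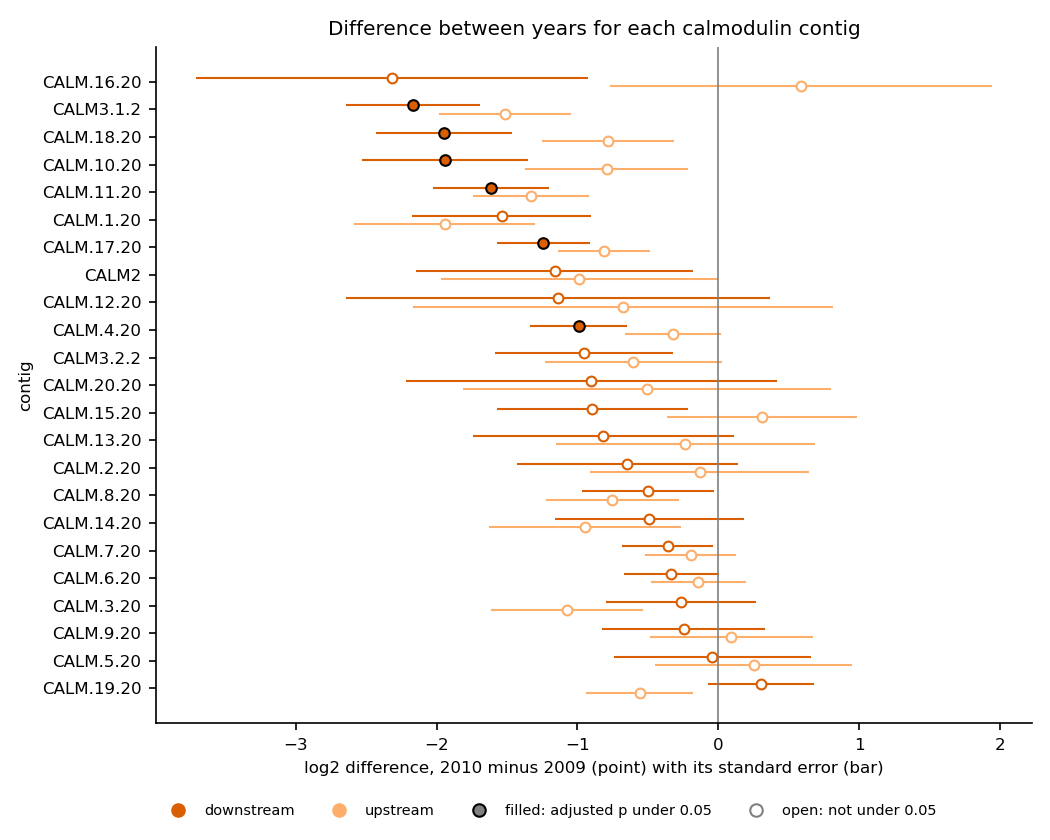
Log2 difference of 2010 minus 2009 for each calmodulin contig (points) with its standard error (bars), downstream in dark and upstream in light orange, filled where the adjusted p was under 0.05. The 6 filled points are all downstream and below 0, and CALM.7.20 and CALM.6.20 lie near 0 at both sites.

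Upstream, no calmodulin contig was called between 2010 and 2009 by edgeR, while 3.73% of all contigs were. At an unadjusted p under 0.05, 4 contigs passed (17.4%, against 19.4% of all contigs). DESeq2 called 3 (CALM.1.20, CALM.11.20 and CALM3.1.2) and limma-voom none, and the share of all contigs called by these tools is not given beside them. The estimate was below 0 for 19 of 23 contigs, with a median of -0.61 against -0.02 over all contigs. CALM.11.20 had 15.2, 24.1 and 47.3 CPM upstream in 2010 and 28.8, 51.9 and 128 CPM upstream in 2009. All 8 libraries of 2010 lay below the median of 2009, and the log2 difference was -1.33 ± 0.41 (adjusted p = 0.0622, edgeR). CALM3.1.2 had 3.68, 8.59 and 16.4 CPM in 2010 and 7.90, 21.6 and 49.8 CPM in 2009, again with all 8 libraries of 2010 below the median of 2009 (-1.51 ± 0.47, adjusted p = 0.0631, edgeR). Without downstream 2009 replicates 7 and 8, which enter this comparison only through the shared estimate of spread and scaling, both were called, at adjusted p-values of 0.0222 for CALM.11.20 and 0.0206 for CALM3.1.2. Each was also called in some of the fits that left out 1 library.

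The site by year interaction, which tests whether the difference between years was the same at both sites, called no calmodulin contig and 0.441% of all contigs. None passed at an unadjusted p under 0.05, against 10.8% of all contigs, and neither DESeq2 nor limma-voom called one. The smallest p was that of CALM.18.20, with a difference of the log2 differences, downstream minus upstream, of -1.16 ± 0.66 (adjusted p = 0.578, edgeR). Without downstream 2009 replicates 7 and 8 it was -0.0030. CALM.19.20 came next with 0.86 ± 0.54 (adjusted p = 0.642, edgeR). That 6 contigs passed the threshold downstream and none upstream does not show that the sites differed.

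The comparison of sites asks what differed below the dump. In 2010 edgeR called no calmodulin contig and 0.164% of all contigs. At an unadjusted p under 0.05 only CALM.19.20 passed (4.35% of the 23, against 14.2% of all contigs). Among the other tools limma-voom called none and DESeq2 called CALM.12.20 alone, a contig whose level turns on single animals in every group. CALM.19.20 had 3.36, 4.13 and 17.9 CPM downstream and 1.92, 3.03 and 5.44 CPM upstream in 2010, with a log2 difference of 0.90 ± 0.38 (adjusted p = 0.285, edgeR). The downstream high of 17.9 CPM was that of replicate 5, and the next downstream value was 7.27 CPM. CALM.13.20 had 1.13, 2.38 and 17.2 CPM downstream and 0.957, 3.33 and 55.6 CPM upstream (-1.62 ± 0.94, adjusted p = 0.440, edgeR).

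In 2009 edgeR, DESeq2 and limma-voom called no calmodulin contig between the sites, and edgeR called 0% of all contigs. Unadjusted, 2 passed at p under 0.05 (8.7%, against 8.34% of all contigs). CALM.18.20 had 20.8, 44.7 and 327 CPM downstream and 22.4, 44.2 and 93.1 CPM upstream, with nearly equal medians, and a log2 difference of 1.12 ± 0.47 (adjusted p = 0.557, edgeR). CALM.10.20 had 0.146, 0.910 and 11.1 CPM downstream and 0.352, 1.06 and 2.10 CPM upstream (1.23 ± 0.58, adjusted p = 0.587, edgeR). Both estimates rested on downstream replicates 7 and 8: without them they were -0.05 for CALM.18.20 and -0.31 for CALM.10.20. Over both years edgeR again called 0% of all contigs, and 12.5% of all contigs passed at an unadjusted p under 0.05. No calmodulin contig passed even unadjusted or by the other tools. The smallest p belonged to CALM.13.20 (-1.33 ± 0.66, adjusted p = 0.403, edgeR) and CALM.19.20 (0.47 ± 0.27, adjusted p = 0.458, edgeR), downstream minus upstream. The groups overlapped for all 23 contigs in both years, but overlap was not counted for the other contigs of the table.

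Age class was compared in an additive fit of group and age class, so that animals were set against others of the same group. Downstream 2009 held 7 of the 11 old animals, no young one and 1 middle-aged one, so the difference of old minus young rested mainly on the other 4 old animals. Values pooled over age classes, which follow, also carry the differences between groups. In the main edgeR fit of old against young animals no calmodulin contig was called, while 2.45% of all contigs were, 1062 of them higher and 196 lower in old animals. At an unadjusted p under 0.05, 7 of the 23 passed (30.4%, against 23.5% of all contigs). DESeq2 called 5 and limma-voom 4, all higher in old animals, and the share of all contigs called by these tools is not given beside them. The 3 lowest adjusted p-values lay just above the threshold, and their calls changed with the choice of tool and with single animals.

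CALM.8.20 had 4.11, 5.57 and 8.32 CPM in 10 young animals (lowest, median and highest), 3.62, 7.15 and 25.3 CPM in 11 middle-aged and 3.91, 10.1 and 33.2 CPM in 11 old ones. Of the old animals, 8 lay above the highest young one and 1 below the lowest. Outside downstream 2009 the 4 old animals had 33.2 and 10.1 CPM downstream in 2010, 9.62 CPM upstream in 2010 and 10.7 CPM upstream in 2009. The log2 difference of old minus young was 1.62 ± 0.45 (adjusted p = 0.0501, edgeR). Leaving out 1 library at a time gave 1.03 to 1.88, and 10 of the 32 fits called it. Without downstream 2010 replicate 5, an old animal with 33.2 CPM, the adjusted p was 0.463.

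CALM.16.20 had 0.0113, 0.0596 and 0.519 CPM in young, 0, 0.0810 and 2.79 CPM in middle-aged and 0, 0.271 and 23.9 CPM in old animals. Among the old animals 5 lay above the highest young one, and 1 was at 0 counts. The log2 difference of old minus young was 4.93 ± 1.40 (adjusted p = 0.0528, edgeR), and 3.89 to 5.66 with 1 library left out. It was called in 8 of these 32 fits, and the adjusted p was 0.377 without downstream 2010 replicate 5. Its level was high in few animals: 23.9 CPM in downstream 2009 replicate 7, 5.41 CPM in upstream 2010 replicate 5, 4.25 CPM in downstream 2010 replicate 5, all old, and 2.79 CPM in upstream 2009 replicate 5, a middle-aged one.

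CALM.9.20 had 0.155, 1.02 and 1.71 CPM in young, 0.521, 1.42 and 3.22 CPM in middle-aged and 0.745, 2.14 and 8.74 CPM in old animals (old minus young 2.04 ± 0.58, adjusted p = 0.0536, edgeR). Of the old animals 6 lay above the highest young one. Its 6 lowest libraries were those high in CALM.12.20, among them young animals with 0.155, 0.211, 0.248 and 0.709 CPM. The other 2 were a middle-aged animal with 0.521 CPM and an old one with 0.745 CPM. The part of that pattern in the age difference was not tested. CALM.18.20 separated the classes most by rank, with 9 of 11 old animals above the highest young one, 37.0 CPM. However, 7 of those 11 old animals came from downstream 2009, and within groups its log2 difference was 1.38 ± 0.48 (adjusted p = 0.0983, edgeR). CALM.7.20 showed no such order, with a log2 difference of -0.12 ± 0.37 (adjusted p = 0.848, edgeR).

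Between the other age classes edgeR called no calmodulin contig. For middle-aged against young animals it called 0.0039% of all contigs. At an unadjusted p under 0.05, 2 calmodulin contigs passed (8.7%, against 11.3% of all contigs). DESeq2 called 533 of all contigs, CALM.12.20 as the only calmodulin contig among them. The 481 contigs that limma-voom called held no calmodulin contig. CALM.8.20 was 0.83 ± 0.36 higher on the log2 scale in middle-aged animals (adjusted p = 0.407, edgeR), and CALM.12.20 differed by -4.09 ± 1.94 (adjusted p = 0.433, edgeR), with 214 CPM as its one high value in middle-aged and 4 high values in young animals. For old against middle-aged animals edgeR called 0% of all contigs. Unadjusted, 3 calmodulin contigs passed (13%, against 13.3% of all contigs), and neither other tool called one. CALM.16.20 differed by 3.61 ± 1.49 (adjusted p = 0.314, edgeR) and CALM.2.20 by 1.41 ± 0.66 (adjusted p = 0.357, edgeR).

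**Figure D5:**
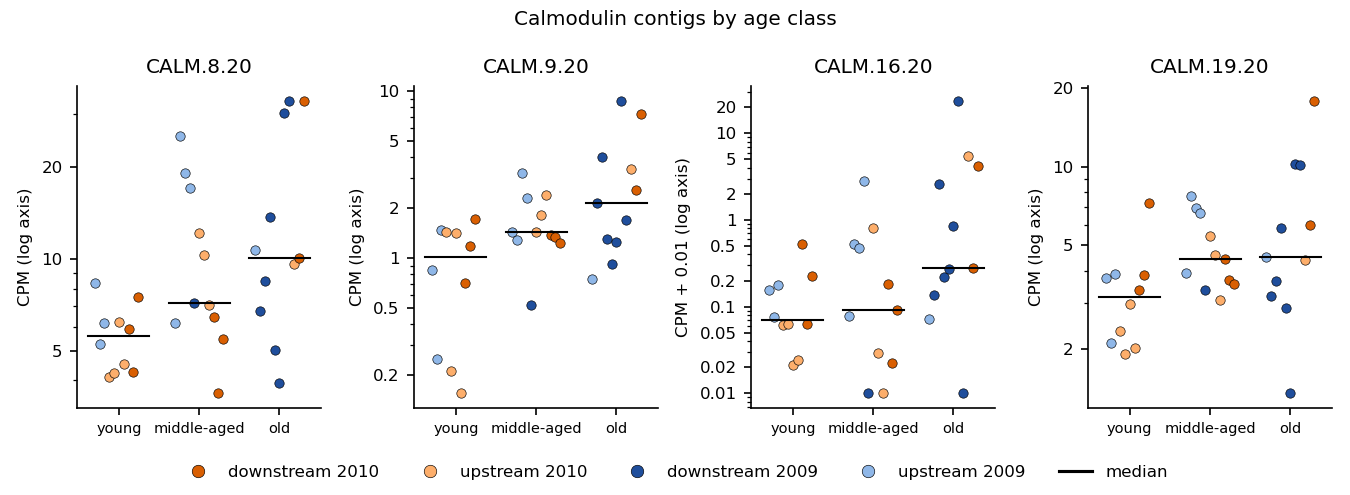
CPM (log axes, with 0.01 added for CALM.16.20 to show zeros) of CALM.8.20, CALM.9.20, CALM.16.20 and CALM.19.20 in young, middle-aged and old animals, 1 point per animal coloured by group, with bars for the medians. For CALM.8.20 the medians are 5.57, 7.15 and 10.1 CPM, and the old animals spread from 3.91 to 33.2 CPM.

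Few contigs were named for the partners of calmodulin. Among enzymes that calmodulin switches on, 1 contig was found, NOS, named for nitric oxide synthase, which needs bound calmodulin for electron flow in its animal forms. NOS had 0.0660, 0.344 and 3.99 CPM in 10 young animals, 0.203, 1.5 and 10.8 CPM in 11 middle-aged and 0.139, 6.59 and 45.2 CPM in 11 old ones. The classes overlapped, and the highest value was again that of downstream 2009 replicate 7. The 4 old animals outside downstream 2009, on which the fit mainly rested, had 18.2 and 7.27 CPM downstream in 2010, 2.33 CPM upstream in 2010 and 7.44 CPM upstream in 2009. NOS was called higher in old than in young animals, with a log2 difference of 3.80 ± 0.96 (adjusted p = 0.0366, edgeR). It was also called by DESeq2 (adjusted p = 0.00162) and limma-voom (0.00622). With 1 library left out it was called in 24 of 32 fits, with log2 differences of 3.49 to 4.80. Without downstream 2010 replicate 5 the log2 difference was 3.60, little changed, while the adjusted p rose to 0.283 (edgeR). It was called in none of the site and year comparisons.

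Among calcium channels 3 contigs were named: CRCM1 for the plasma membrane store-operated channel Orai1, ITPR for the inositol trisphosphate receptor that releases calcium from the endoplasmic reticulum, and MCU for the mitochondrial calcium uniporter. None of the 3 was called in any comparison. ITPR averaged 11.7 ± 4.87 CPM in old and 19.7 ± 2.25 CPM in young animals (SD, n = 11 and 10), with a log2 difference of -0.69 ± 0.27 (adjusted p = 0.138, edgeR). MCU averaged 1.5 ± 0.788 CPM in old and 3.71 ± 1.74 CPM in young animals (-1.34 ± 0.50, adjusted p = 0.121, edgeR). Of 11 contigs named for other EF-hand proteins, such as myosin light chains, neurocalcin and EF-hand domain proteins, none was called in any comparison. In the downstream comparison of 2010 with 2009 their median log2 difference was -0.99, close to that of the calmodulin contigs. Low medians were not particular to EF-hand proteins. The median was -1.26 for the muscle list, which shares myosin light chains with this one. It was -1.33 for tubulins and dyneins, -1.76 for ribosomal proteins and 0.31 for the calcium channels.

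Among named contigs outside the rule, the one most like the calmodulin sum over the 32 libraries was TBA3.3.3, named for an alpha-tubulin, with an r of 0.924 of log2(CPM + 0.5) over 1431 named contigs compared. It was followed by Smdt1, named for a regulator of the mitochondrial calcium uniporter, with 0.909, FAM213B with 0.891, mrps31.2.2, a mitochondrial ribosomal protein, with 0.889, and CHIA.2.3, a chitinase, with 0.886. For CALM.17.20 the most alike included SEC61G, a subunit of the endoplasmic reticulum translocon (0.953), and RS27, a small ribosomal subunit protein (0.951). For CALM.4.20 they were ACT2, an actin (0.925), cfp (0.915) and NOCT (0.906), and for CALM.10.20 B3GL2 (0.949), RPC4 (0.915) and klf11 (0.908). For CALM.11.20 they were tmem97 (0.883), DTD1.2.2 (0.881) and 1433F (0.874). For CALM.18.20 they were COLA1 (0.937), npc2 (0.919) and CIPKH (0.915), and for CALM3.1.2 ZN808.1.2 (0.915), abracl (0.909) and SERP2 (0.900). These values describe likeness over libraries that share scaling factors and the outlying animals named above.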

How the data were processed

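RNA was isolated from kidney with the SV Total RNA kit and made into TruSeq v2 libraries, per the labels' protocols. The values deposited by the authors are whole-number read counts of assembled contigs, which the authors did not normalize as far as the values show. BWA 0.7.12 and SAMtools 1.1 are named, per the submitters' processing notes. The assembler, the source of contig names and the counting of reads matching several contigs are not given in the sources used here.

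The main analysis used edgeR 4.0.16 under R 4.3.3: filterByExpr (minimum count 10, minimum total 15), TMM factors, robust glmQLFit on all 32 libraries with 4 group means, and glmQLFTest, with Benjamini-Hochberg adjustment over all contigs kept and a threshold of 0.05. Standard errors come from the F statistic. Age class was tested in a fit with group and age as additive terms. Likeness used log2(CPM + 0.5). A contig among the most alike is not reported here. The steps were tested on simulated data. Total counts per library of 55.7 to 190 M set the counting precision, and the limits given for counts of 0 cover counting error only. Standard errors and SDs include the variation between animals. Replicates are separate animals, numbered within a group in the order of the samples. These numbers only name an animal and pair none, and lane and age class are given by the labels.

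Values are given in full for contigs called in any comparison, for the 2 of smallest p per comparison, and for those of highest and lowest mean. The other contigs given with values were chosen after their values were seen. Lists were built from contig names, and names that matched a pattern but not its meaning were taken out. A list of diatom locus tags, meant for material from food, had 6 of 15 contigs tested, of which 5 were called lower in 2010 upstream and 4 downstream. The members, lists and tests were chosen with earlier results of these data known. Alternatives were RLE factors, other filters, lane or age terms, only the groups compared, DESeq2 1.42.0, limma-voom (limma 3.58.1), and leaving out libraries. Shares of all contigs called are those of the main edgeR fit, unless another tool is named. The fit with age and lane together was added after seeing the data.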

Additional observations from a re-analysis of the deposited data

Results flagged for a closer look

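In each group of 8 libraries the highest and the lowest level of each of the 23 calmodulin contigs, and of their sum, was compared on the log2(CPM + 0.5) scale with its nearest neighbour. A library was marked where that gap, divided by the range of the group, exceeded Dixon's critical value. Of the 96 sets of 8 values, 12 gave such a library, where chance alone marks about 5 in 100.

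Downstream 2010 replicate 5, an old animal, was marked for 5 contigs. It had 1.97 CPM of CALM.3.20 with 0.480 CPM as the next value of its group, 33.2 CPM of CALM.8.20 with 10.1 CPM next, 2.01 CPM of CALM.14.20 with 0.469 CPM next, 4.25 CPM of CALM.16.20 with 0.519 CPM next, and 17.9 CPM of CALM.19.20 with 7.27 CPM next. Its total of 79.9 M counts and its scaling factor of 1.20 lay inside the range of the other libraries. CALM.8.20 and CALM.19.20, and CALM.3.20 and CALM.14.20, are pairs that varied together over all libraries, so these flags are not independent.

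CALM.16.20 was marked in all 4 groups. Besides downstream 2010 replicate 5, its high libraries were upstream 2010 replicate 5 with 5.41 CPM (0.793 CPM next), downstream 2009 replicate 7 with 23.9 CPM (2.58 CPM next) and upstream 2009 replicate 5 with 2.79 CPM (0.516 CPM next). Downstream 2009 replicate 7 was also marked for CALM2, at 9.32 CPM with 2.18 CPM next. Upstream 2010 replicate 5, which had the highest scaling factor of all libraries, 1.47, was marked for its low level of CALM.6.20, 67.7 CPM with 146 CPM next.

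Of the 6 libraries high in CALM.12.20, those that were alone in their group were marked: downstream 2010 replicate 4 with 98.4 CPM of CALM.12.20 (8.65 CPM next) and downstream 2009 replicate 3 with 46.3 CPM of CALM.13.20 (6.82 CPM next).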

How the results depend on the processing

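No paired analysis was possible because the labels number the animals through the series, with no number shared between groups. The replicate numbers used here only name them, and lane, which the groups share, was fitted as a term. The counts that follow stand without the share of all contigs called in the same fit, so they have no background to be read against. Counts of calmodulin contigs called between years downstream (6) became 2 with age class as a term, 2 without downstream 2009 replicates 7 and 8, and 0 with age and lane as terms, and ran from 4 to 8 with 1 library left out. Upstream (0) they became 3 with DESeq2 and 2 without those replicates. With 1 library left out they ran from 0 to 3: 3 without upstream 2009 replicate 8, 2 without upstream 2009 replicate 1 or upstream 2010 replicate 1, and 1 without downstream 2009 replicate 7 or 8. For site in 2010 (0) DESeq2 gave 1, and for middle-aged against young (0) it gave 1. For old against young (0) the counts were 8 with age class alone, 5 with DESeq2, 5 without downstream 2009 replicates 7 and 8, 4 with a lane term, 4 with limma-voom and 2 under the filter of 1 CPM in 8 libraries. With 1 library left out they ran from 0 to 3: 3 without downstream 2009 replicate 5, 7 or 8, downstream 2010 replicate 2 or upstream 2009 replicate 2, 2 without downstream 2009 replicate 1 or upstream 2009 replicate 3, and 1 without downstream 2009 replicate 6, downstream 2010 replicate 4, upstream 2009 replicate 1 or upstream 2010 replicate 1 or 5. NOS lost its call for old against young without upstream 2009 replicate 6, 7 or 8, upstream 2010 replicate 4 or 6, or downstream 2010 replicate 7 or 8 (adjusted p 0.0531 to 0.0695). For the remaining comparisons every fit without 1 library gave 0. Directions turned for CALM.10.20, site in 2009 (-0.31 without downstream 2009 replicates 7 and 8, -0.42 with limma-voom, -0.32 with age and lane terms), CALM.18.20, site in 2009 (-0.0503 without those replicates, -0.17 with age and lane terms), and CALM.19.20, site over both years (-0.19 with age and lane terms). The summed level had a median of 489 CPM without CALM.7.20 and 924 CPM with RLE factors, against 937 CPM. The cause of these changes was not tested, and fits that left libraries out also held fewer animals. The 8 animals per group, of uneven age, limit what can be told apart, and depth limits only the contigs under 1 CPM.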
